A study of Mus musculus with 7 samples.

Results

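A set of 10 genes of endothelial cell junctions and of the endothelial surface were described across B16F10 melanoma cells and mouse dermal endothelial cells, beside the gain of Pecam1. They were taken by symbol from the array's annotation, and all 10 were found among the 19938 genes measured, each with 1 probe set of its own. The study measured RNA on 7 single-colour Affymetrix Mouse Gene 1.0 ST arrays, 1 per sample. A single array came from cultured mouse dermal endothelial cells (MDEC), whose label reads PECAM positive. Another 4 came from the PECAM1+ B16F10 clones A2, A3, A4 and A5. The remaining 2 came from PECAM1- B16F10 samples, namely parental cells and clone A1. B16F10 is a pigmented melanoma line of the mouse, and PECAM1 is an immunoglobulin surface protein found at endothelial cell borders and on blood cells. The samples had no genetic change or agent in their labels, the labels did not say how the clones came to carry PECAM1, and each clone was 1 array. B16F10 cells and MDEC were grown in different media, so cell type and medium cannot be told apart. Separate cultures were not named in the labels for the samples of a group. The p-values therefore cover only the spread among these arrays, which may be technical.

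Endothelial cells are held together by adherens junctions and tight junctions. VE-cadherin is the adherens junction cadherin of the endothelium, claudin-5 and occludin are tight junction membrane proteins, and ZO-1 is the scaffold that ties them to actin. ESAM and the junctional adhesion molecules JAM-A, JAM-B and JAM-C are immunoglobulin proteins of the same contacts, while ICAM2 and CD34 sit on the endothelial surface and take part in leukocyte adhesion. PECAM1 lies at the same cell borders but is not part of either junction complex.

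The array medians lay between 6.12 and 6.18 on the log2 scale. The MDEC array carried the endothelial markers chosen for the check, with 10 of 12 at least 4-fold above B16F10. The exceptions were Vwf, at 6.41 in MDEC and a mean of 6.83 in B16F10, and Sox17, at 5.47 and 4.99. All 7 melanocyte markers were at least 4-fold lower in MDEC, with a mean level of 5.93 in MDEC, against 11.6 to 12.2 in the PECAM1+ clones and 11.7 to 11.9 in the PECAM1- samples. Of 10 leukocyte and platelet markers, Cd68 alone was at least 4-fold higher in MDEC (11.18), and clone A1 was at 10.07 where the other B16F10 arrays lay between 7.52 and 8.16. The pan-leukocyte gene Ptprc was at 4.99 in MDEC and between 4.96 and 5.15 in the B16F10 arrays. Among 9 fibroblast and mural markers it was Thy1 (10.06 in MDEC), and among 6 epithelial markers Krt18 (8.61 in MDEC). The part of such cells in the results was not tested.

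Pecam1 was at 11.07, 11.01, 11.03 and 10.996 in clones A2 to A5, and at 5.27 in parental cells and 5.43 in clone A1. MDEC were at 11.72, so the PECAM1+ clones held 89.2% of the log2 distance between the PECAM1- samples and MDEC. None of the 10 junction and surface genes was called alongside it by limma, where 0.0100% of all genes were. The 6 B16F10 arrays lay within 0.5 log2 units of each other for 9 of them, where 36.4% of all genes spanned 0.498 or more. In MDEC 7 of the 10 were at least 4-fold higher, where 2.72% of all genes were, and 1 was at least 4-fold lower, where 2.01% of all genes were.

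**Figure D1:**
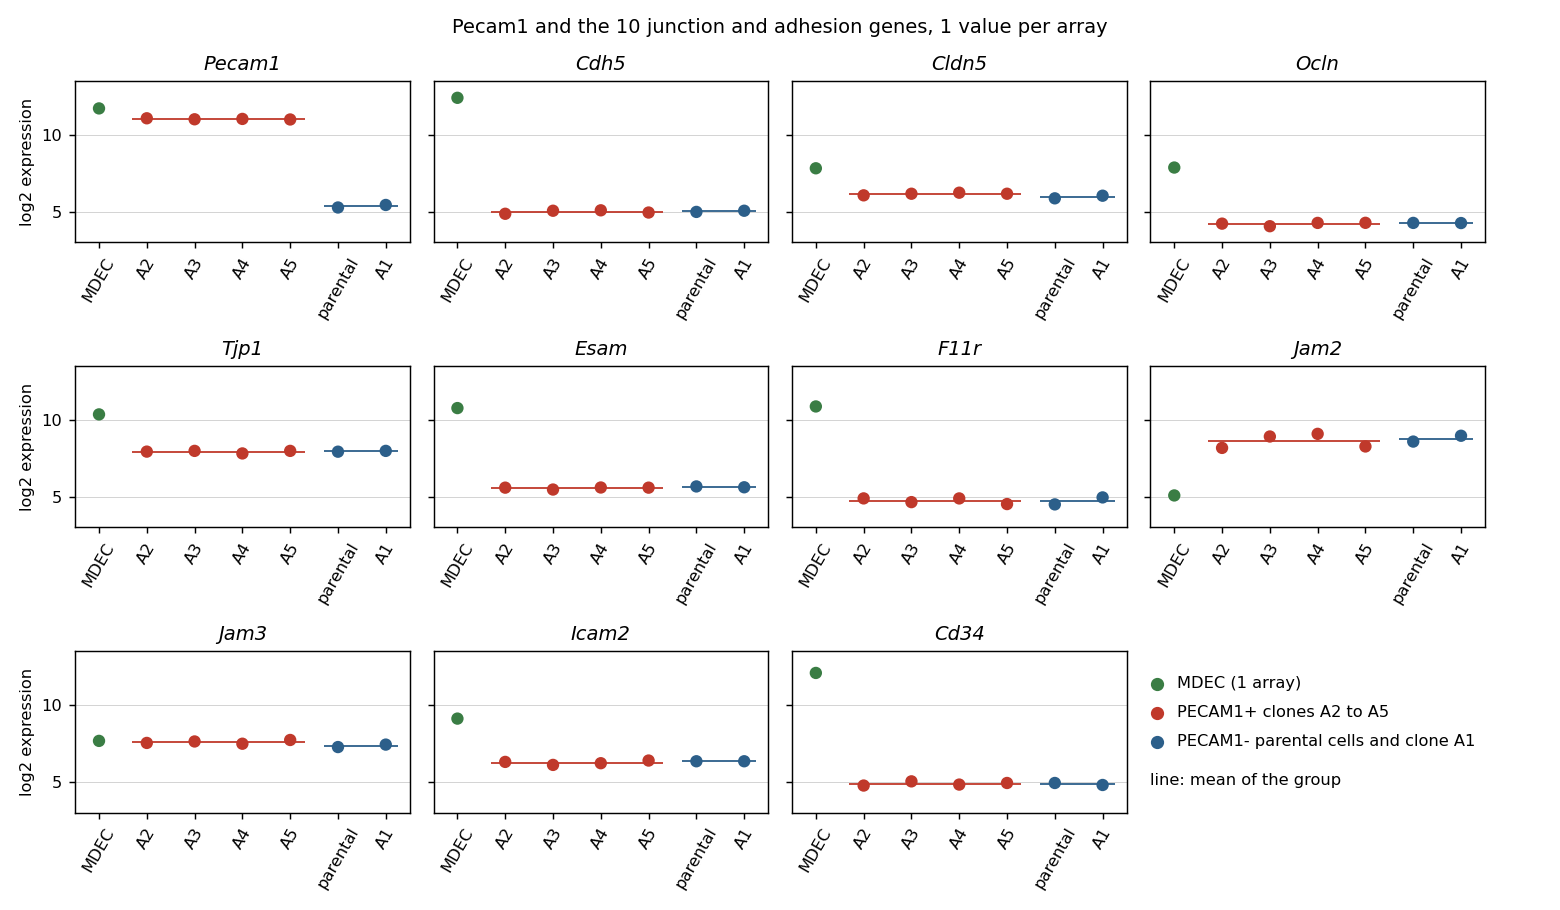
Log2 expression of Pecam1 and the 10 genes on each of the 7 arrays, with 1 point per array and a line at the mean of each B16F10 group. Pecam1 lies near 11 in the PECAM1+ clones and near 5 in the PECAM1- samples. The other genes span at most 0.91 log2 units across B16F10 (Jam2), and all but Jam3 lie outside their B16F10 span in MDEC.

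VE-cadherin, encoded by Cdh5, showed the widest distance between cell types. Cdh5 was at 12.41 in MDEC, at 4.86, 5.05, 5.08 and 4.94 in clones A2 to A5, and at 4.98 in parental cells and 5.05 in clone A1. The MDEC array was 7.41 log2 units above B16F10, taken as the mean of the PECAM1+ and PECAM1- means (169.9-fold), and 7.33 above the nearest B16F10 array. The PECAM1+ and PECAM1- arrays overlapped. Their limma difference was -0.03 (95% interval -0.22 to 0.15, adjusted p = 0.867). In bulk RNA, fewer cells with a transcript and less transcript per cell cannot be told apart.

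The tight junction membrane genes were both higher in MDEC, by different amounts. Cldn5, which encodes claudin-5, was at 7.82 in MDEC. It was at 6.06, 6.16, 6.23 and 6.16 in clones A2 to A5, and at 5.86 in parental cells and 6.03 in clone A1. MDEC lay 1.77 log2 units (3.41-fold) above B16F10, which is under the 4-fold used here as a rule of size. Every PECAM1+ clone was above both PECAM1- samples, though clone A2 by only the distance between 6.06 and 6.03. The difference of 0.20 (95% interval 0.02 to 0.39) had an unadjusted limma p of 0.0325 and an adjusted p of 0.494, so it did not pass. It amounted to 10.9% of the distance from the PECAM1- samples to MDEC. Ocln, which encodes occludin, was at 7.87 in MDEC, at 4.21, 4.05, 4.26 and 4.27 in clones A2 to A5, and at 4.26 in parental cells and 4.25 in clone A1. Occludin RNA was thus 3.64 log2 units (12.5-fold) higher in MDEC, and the B16F10 arrays stayed within 0.22 of each other. Its groups overlapped, with a difference of -0.06 (95% interval -0.24 to 0.12, limma adjusted p = 0.737).

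Tjp1 encodes ZO-1, a scaffold found also in junctions of cells that are not endothelial. It was at 10.36 in MDEC, at 7.94, 7.98, 7.82 and 7.98 in clones A2 to A5, and at 7.93 in parental cells and 7.98 in clone A1. The MDEC array was 2.42 log2 units (5.34-fold) higher. With a span of 0.17 across B16F10, Tjp1 had the narrowest span of the 10 genes, and 3 pairs of its arrays held an identical deposited value. The PECAM1+ minus PECAM1- difference was -0.03 (95% interval -0.23 to 0.18, limma adjusted p = 0.905).

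The immunoglobulin proteins of the junction did not move together between the cell types. Esam was at 10.77 in MDEC, at 5.59, 5.47, 5.60 and 5.59 in clones A2 to A5, and at 5.67 in parental cells and 5.61 in clone A1. F11r, which encodes JAM-A, was at 10.88 in MDEC, at 4.89, 4.65, 4.89 and 4.52 in clones A2 to A5, and at 4.50 in parental cells and 4.95 in clone A1. Both were thus high in MDEC alone, by 5.17 log2 units (36.0-fold) for Esam and 6.15 (70.8-fold) for F11r. The PECAM1+ clones were all below the PECAM1- samples for Esam, with a difference of -0.08 (95% interval -0.21 to 0.05, limma adjusted p = 0.554). For F11r the groups overlapped, and parental cells and clone A1 lay at the ends of the B16F10 range. Its difference was 0.01 (95% interval -0.41 to 0.43, limma adjusted p = 0.990).

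Jam2, which encodes JAM-B, ran the other way. It was at 5.08 in MDEC, at 8.18, 8.92, 9.09 and 8.27 in clones A2 to A5, and at 8.59 in parental cells and 8.97 in clone A1. The difference of MDEC from B16F10 was -3.62 log2 units, or 12.3-fold lower in MDEC, and that from the nearest B16F10 array was -3.10. Clones A2 and A5 were lower than the 4 other B16F10 arrays, and the PECAM1+ clones alone covered the whole B16F10 span of 0.91. The limma difference between the groups was -0.16 with a 95% interval from -0.96 to 0.63, the widest of the 10 genes (adjusted p = 0.843).

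JAM-C is a binding partner of JAM-B, and its gene Jam3 was the 1 member with no difference between cell types outside the B16F10 range. Jam3 was at 7.67 in MDEC, at 7.53, 7.63, 7.48 and 7.73 in clones A2 to A5, and at 7.26 in parental cells and 7.42 in clone A1. MDEC lay among the PECAM1+ clones and above both PECAM1- samples. All 4 clones were above both PECAM1- samples, by a mean of 0.25 (95% interval 0.00 to 0.49, lower bound 0.0019), with an unadjusted limma p of 0.0488 and an adjusted p of 0.537. The clone nearest to clone A1 was A4, at 7.48 against 7.42.

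Icam2 and Cd34 are surface glycoproteins of endothelium, and CD34 also marks blood progenitors. Icam2 was at 9.12 in MDEC, at 6.30, 6.10, 6.21 and 6.39 in clones A2 to A5, and at 6.34 in both parental cells and clone A1. Its 2 PECAM1- values were identical to the last deposited digit, which makes the spread of that group 0. The MDEC array was 2.82 log2 units (7.07-fold) higher. Cd34 was at 12.09 in MDEC, at 4.76, 5.03, 4.82 and 4.92 in clones A2 to A5, and at 4.92 in parental cells and 4.79 in clone A1. It stood next to Cdh5 in the size of its difference, at 7.22 log2 units (149-fold), and its B16F10 groups overlapped. The PECAM1+ minus PECAM1- difference was -0.09 for Icam2 (95% interval -0.30 to 0.12, limma adjusted p = 0.665) and 0.02 for Cd34 (95% interval -0.20 to 0.24, limma adjusted p = 0.925).

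Promoter sequences from RefSeq (GRCm38.p6, 250 bases before and 50 after the start site) were at hand for 5 of the 10 genes, Cldn5, F11r, Tjp1, Ocln and Cd34. Cdh5, Esam, Jam2, Jam3 and Icam2 had no entry. The 3 shown belong to genes at least 4-fold higher in MDEC and carry 1 match each to GGAAG, the core that ETS factors read, searched on both strands. No match to any of the 4 motifs named here overlapped another in these entries. ETS factors such as Erg, which was at 10.90 in MDEC and a mean of 5.18 in B16F10, are known regulators of endothelial genes. Capitals mark the match, as GGAAG or as CTTCC on the other strand. Cd34 is read from chr1:194938571-194938870 on the plus strand, F11r from chr1:171437311-171437610 on the plus strand and Tjp1 from chr7:65371195-65371494 on the minus strand.
Cd34: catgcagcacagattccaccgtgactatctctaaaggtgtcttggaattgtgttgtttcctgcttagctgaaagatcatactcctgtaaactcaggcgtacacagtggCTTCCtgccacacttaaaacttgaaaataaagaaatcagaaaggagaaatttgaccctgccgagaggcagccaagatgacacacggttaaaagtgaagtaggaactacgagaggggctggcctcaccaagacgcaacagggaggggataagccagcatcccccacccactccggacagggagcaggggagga
F11r: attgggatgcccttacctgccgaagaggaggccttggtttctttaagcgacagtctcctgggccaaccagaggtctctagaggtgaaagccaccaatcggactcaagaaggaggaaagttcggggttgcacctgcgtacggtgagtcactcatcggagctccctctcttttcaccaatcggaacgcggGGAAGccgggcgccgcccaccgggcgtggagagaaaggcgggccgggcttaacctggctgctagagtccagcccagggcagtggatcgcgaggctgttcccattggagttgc
Tjp1: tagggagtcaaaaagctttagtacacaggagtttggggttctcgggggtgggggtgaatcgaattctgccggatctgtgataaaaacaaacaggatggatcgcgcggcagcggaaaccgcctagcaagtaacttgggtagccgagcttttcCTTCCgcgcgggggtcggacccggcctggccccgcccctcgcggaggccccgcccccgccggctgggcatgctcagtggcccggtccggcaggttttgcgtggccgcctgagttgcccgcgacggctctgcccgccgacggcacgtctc
The match begins at -142 in Cd34, -62 in F11r and -99 in Tjp1, counted from the start site. GGAAG was in 71.4% of all 32851 promoter entries, so its presence describes these sequences only. Of the Ocln entries, 1 of 2 held it, and the Cldn5 entry did not. The GATA letters GATAA were in the Cd34 and Tjp1 entries and in 25.4% of all, and the SOX letters ACAAT in the Cd34 entry and in 31.0% of all. GGGCGG, a GC box, was in all of the entries but that of Cd34 and in 35.7% of all.

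Whether the PECAM1+ clones differed from the PECAM1- samples in these genes was tested across all genes. None of the 10 was called by limma (adjusted p from 0.494 to 0.990), where 2 of 19938 genes (0.0100%) were called in all, Pecam1 among them. An unadjusted p under 0.05 was found for 2 of the 10, Cldn5 and Jam3, where 9.18% of all genes had one. The groups did not overlap for 3, Cldn5, Jam3 and Esam, where 16.4% of all genes did not. Against both PECAM1- samples 4 were higher and 6 lower, with a median of -0.03, where the median over all genes was 0.00114.

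The intervals give the sizes of difference in array signal that these arrays leave possible. Signal over background is unknown, and 7 of the 10 lay below the median level of all genes in B16F10. For genes that dim, the bounds may not hold for the transcript itself. For all 10 the 95% interval lay inside -1 to 1, which is less than a 2-fold change in either direction, and without Jam2 inside -0.41 to 0.49. These are intervals of single genes and are not widened for the number of genes. In 6 of the 10 genes at least 1 pair of B16F10 arrays held an identical deposited value, where 50.9% of all genes had such a pair. For comparison, the interval of Pecam1 was 5.46 to 5.90.

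**Figure D2:**
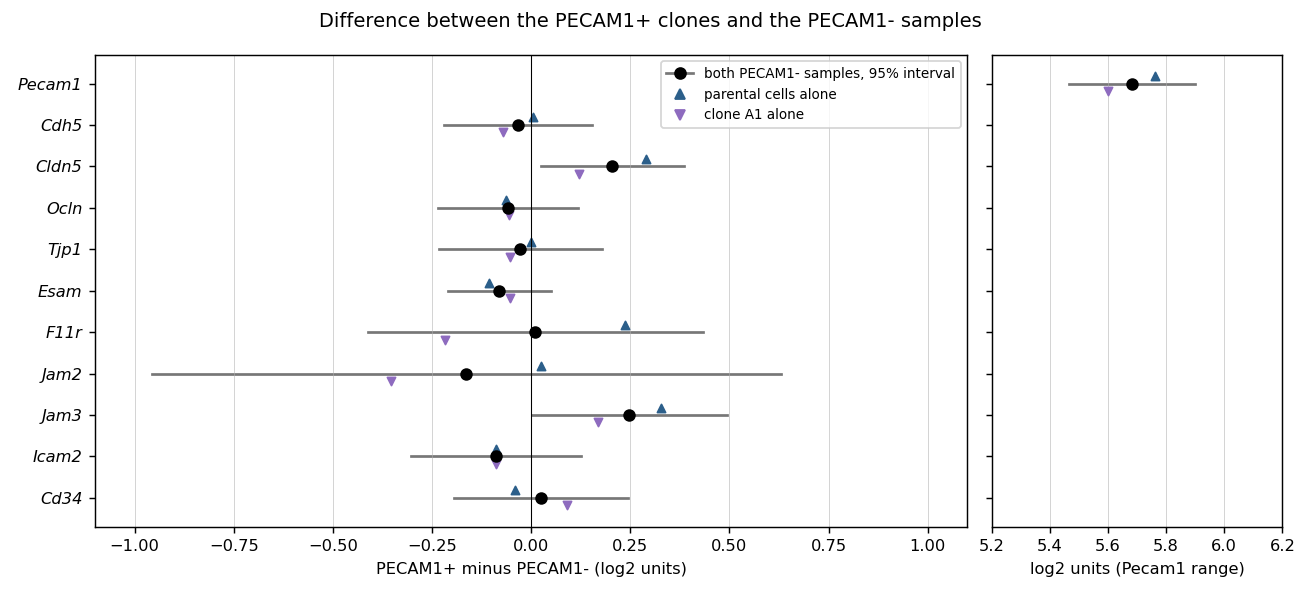
Difference between the PECAM1+ clones and the PECAM1- samples in log2 units, with the limma 95% interval against both PECAM1- samples and the differences from parental cells or clone A1 alone. All 10 intervals lie inside -1 to 1, while Pecam1 lies at 5.68 in the right panel.

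Clone A1 and parental cells were also taken singly, since 1 is a clone and the other is not. With clone A1 as the only PECAM1- array, limma called 9.33% of all genes as higher and 11.2% as lower, and 0 of the 10 (smallest adjusted p 0.358). Against parental cells alone it called 0.0100% of all genes and 0 of the 10 (smallest adjusted p 0.247). A lone sample is assumed here to vary like the PECAM1+ clones. The median difference of the 10 genes was -0.05 from clone A1 and 0.002 from parental cells. F11r turned its sign between them, at -0.22 from clone A1 and 0.24 from parental cells. So did Jam2, at -0.35 and 0.03, with Cdh5 at -0.07 and 0.005 and Cd34 at 0.09 and -0.04. Cldn5 was higher than either, by 0.12 from clone A1 and 0.29 from parental cells, and so was Jam3, by 0.17 and 0.33.

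As a share of the distance from the PECAM1- samples to MDEC, the 9 genes with a distance of at least 1 log2 unit held little of it. Cldn5 held 10.9%, and the 8 others between -3.24% and 4.43%, where Pecam1 held 89.2%. The PECAM1- mean enters both ends of this ratio, so it is a description and was not tested. The distance of MDEC from the PECAM1+ clones was 7.43 for Cdh5, 7.21 for Cd34 and 6.14 for F11r, against 0.69 for Pecam1.

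Of the 10 genes, 7 were at least 4-fold above B16F10 in MDEC and above all 6 arrays, where 2.72% of all genes were. They were Cdh5, Cd34, F11r, Esam, Ocln, Icam2 and Tjp1. Jam2 was the 1 that was at least 4-fold below, where 2.01% of all genes were. With Cldn5, 8 were at least 2-fold above, where 6.40% of all genes were. The median difference of the 10 was 3.23, where that of all genes was 0.000257. There was 1 MDEC array, so no test was made, and the genes were listed as endothelial in the first place.

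Within B16F10 the median span of the 10 genes from the lowest to the highest array was 0.28, where that of all genes was 0.38. All genes were not matched on level here, and 7 of the 10 lay below the median level of all genes in B16F10, where signal over background is unknown. Jam2 had the widest, 0.91, a span that 14.2% of all genes reached or exceeded. Jam3 (0.46), F11r (0.45) and Cldn5 (0.37) followed, and Tjp1 (0.17), Esam (0.20), Ocln (0.22) and Cdh5 (0.23) were narrowest, each reached or exceeded by 73.9% to 83.5% of all genes. For 6 of the 10 the PECAM1+ clones held both ends of the span, where 25.9% of all genes did so.

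**Figure D3:**
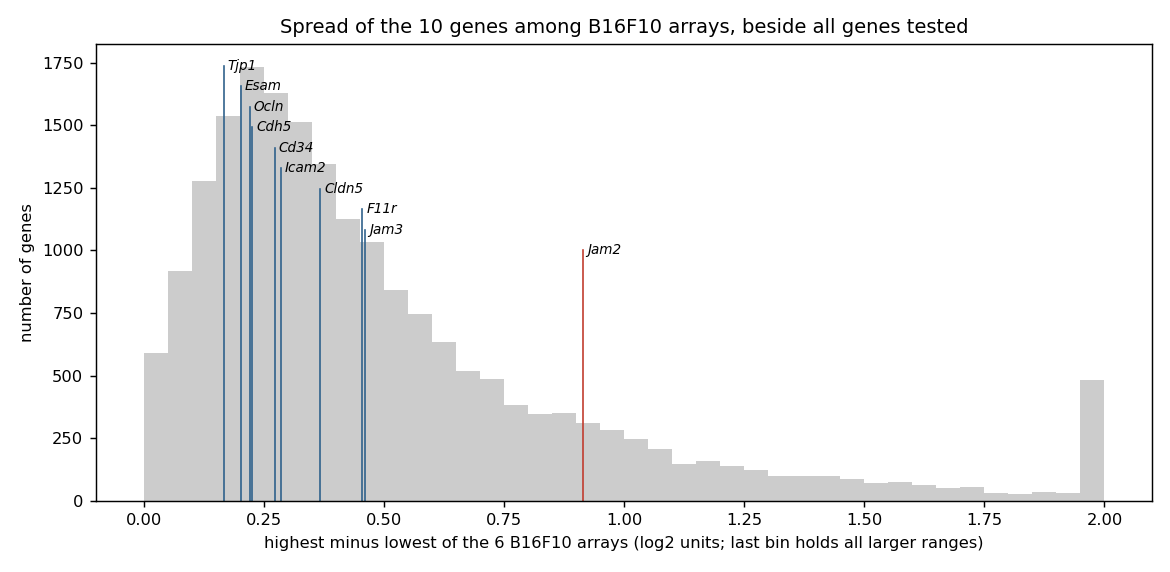
Span between the highest and the lowest of the 6 B16F10 arrays in log2 units, as a histogram over all 19938 genes, with a line for each of the 10 genes. Jam2 stands at 0.91 and the other 9 lie below 0.5, where the median of all genes is 0.38.

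Other genes of junctions and adhesion, 93 with a probe set in 7 lists, were read the same way. None passed between the PECAM1+ clones and the PECAM1- samples, 44 were higher and 49 lower, and the median was -0.004. The lists were not alike in this. Of the scaffold and polarity genes 3 were higher and 14 lower (median -0.13). Of the endothelial surface genes 9 were higher and 4 lower (median 0.12). Over all genes 10051 were higher and 9887 lower. The scaffold median was -0.04 from clone A1 alone and -0.03 from parental cells alone. The surface median was 0.03 and 0.06. A shift of a list was not tested. An unadjusted p under 0.05 was found for 6 of the 93, where 9.18% of all genes had one, and the groups did not overlap for 17, where 16.4% of all genes did not. From clone A1 alone 8 passed as higher and 7 as lower, where 9.33% and 11.2% of all genes did, and from parental cells 0. In MDEC, 14 of the 93 were at least 4-fold higher and 2 lower, with a median of 0.10. Of all genes 2.72% were higher and 2.01% lower by this rule, and these shares apply also to each list below.

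Classical cadherins and catenins link neighbouring cells to actin. In MDEC 3 of 16 were at least 4-fold higher. These were the phosphatase gene Ptprb, whose product VE-PTP binds VE-cadherin (10.18 in MDEC and a mean of 5.29 in B16F10), Cdh13, which encodes T-cadherin (10.02 and 5.74), and Cdh6, with a difference of 2.38 log2 units. N-cadherin, encoded by Cdh2 and used by neural and melanoma cells, was at 9.35 in MDEC, at 10.50, 11.24, 9.98 and 10.98 in clones A2 to A5, and at 10.60 in parental cells and 9.96 in clone A1. Its difference of 0.39 ± 0.40 (SE) did not pass (limma adjusted p = 0.685) and was 0.07 from parental cells alone. Cdh13 differed by -0.39 ± 0.33 (SE), with parental cells at 6.56 and clone A1 at 5.31. Its sign turned between them, at 0.23 from clone A1 alone and -1.01 from parental cells alone. The nectin gene Nectin2 differed by -0.30 ± 0.12 (SE).

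Of the 21 other claudins and tricellular proteins none was 4-fold apart between MDEC and B16F10, as was so for Cldn5 but not for Ocln. Cldnd1 (9.58 in MDEC and a mean of 10.78 in B16F10) and Cldn12 (9.24 and 10.31) were lower in MDEC, and Marveld1 (10.41 and 9.38) was higher. Between the B16F10 groups Cldn15 differed by -0.54 ± 0.23 (SE), Cldn9 by 0.35 ± 0.16 and Marveld1 by -0.29 ± 0.14. None passed against both PECAM1- samples together, and in each of the 3 clone A1 lay apart from the PECAM1+ clones and parental cells. From clone A1 alone the differences were -0.96 for Cldn15, 0.62 for Cldn9 and -0.51 for Marveld1. From parental cells alone they were -0.12, 0.09 and -0.08.

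Of the scaffold and polarity genes 1 of 17 was at least 4-fold higher in MDEC. That gene was Cgnl1, which encodes the junction protein paracingulin, at 9.50 in MDEC and a mean of 5.58 in B16F10. Its 4 PECAM1+ clones held the identical value 5.65, against 5.48 in parental cells and 5.54 in clone A1. Magi1, a scaffold, was at 9.04 in MDEC and a mean of 7.41 in B16F10, and Pard6g, a polarity gene, at 5.71 and 7.42. Mpp5 (-0.42 ± 0.23 SE), Pard6a (-0.33 ± 0.14) and Prkci (0.26 ± 0.18) differed most between the B16F10 groups and did not pass. These differences rested on clone A1. From parental cells alone they were -0.0017 for Mpp5, -0.09 for Pard6a and -0.01 for Prkci, and from clone A1 alone -0.84 for Mpp5 (limma adjusted p = 0.0088), -0.56 for Pard6a (0.012) and 0.54 for Prkci (0.072).

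Among 14 other immunoglobulin adhesion genes, Mcam was at least 4-fold lower in MDEC, at 7.30 against a mean of 11.23 in B16F10. Its product, MCAM or CD146, is a melanoma and endothelial adhesion molecule. Vcam1, an adhesion receptor for leukocytes, was the 1 at least 4-fold higher (6.93 in MDEC and a mean of 4.88 in B16F10), and Cd47 was at 11.23 and 9.34. Icam1, the inducible relative of Icam2, had the largest difference in this list between the B16F10 groups. It was at 8.68 in MDEC, at 7.14, 7.14, 7.14 and 7.30 in clones A2 to A5, and at 6.35 in parental cells and 6.79 in clone A1. The groups did not overlap. The difference of 0.61 ± 0.13 (SE) had an unadjusted limma p of 0.00462 and an adjusted p of 0.391, so it did not pass. Icam1 was higher than either PECAM1- sample, by 0.39 from clone A1 alone and 0.83 from parental cells alone. L1cam differed by -0.48 ± 0.28 (SE) and Cd47 by -0.30 ± 0.17. Both rested on clone A1, with -0.05 for each from parental cells alone. From clone A1 alone L1cam differed by -0.91 and Cd47 by -0.56.

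The sialomucins, selectins and other endothelial surface genes came nearest to the 10 genes in MDEC, where 8 of 13 were at least 4-fold higher and the median was 2.31. These too were listed as endothelial in the first place, and Emcn and Cd93 were also among the endothelial markers of the check. Emcn (11.10 in MDEC and a mean of 4.05 in B16F10), Cd93 (11.11 and 4.17) and Clec14a (9.41 and 4.39), all surface glycoproteins of endothelium, led the list. Procr, the receptor of protein C, was at 12.12 in MDEC, at 8.25, 8.57, 8.78 and 8.83 in clones A2 to A5, and at 8.11 in parental cells and 11.02 in clone A1. Its difference of -0.95 ± 0.78 (SE) between the groups rested on clone A1. It was -2.41 from clone A1 alone and 0.50 from parental cells alone. Mmrn2 differed by 0.30 ± 0.17 (SE) and Plvap by 0.26 ± 0.13, and neither passed. Plvap also rested on clone A1, at 5.77 where the other B16F10 arrays lay between 6.23 and 6.28. It was 0.49 higher than clone A1 alone (limma adjusted p = 0.0042) and 0.026 from parental cells alone.

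Of 6 gap junction genes, 1 was at least 4-fold higher in MDEC and 1 lower. Gja1, which encodes a connexin of many tissues, was at 11.32 in MDEC and a mean of 8.98 in B16F10, and Gjb2, another connexin gene, at 5.57 and 10.57. Gjc1 was at 8.17 and 8.37. Gjb2 had a difference of 0.70 ± 0.41 (SE) between the B16F10 groups, Gja5 one of 0.19 ± 0.08 and Gjc1 one of -0.17 ± 0.28, and none passed. Gjc1 differed by 0.22 from clone A1 alone and by -0.57 from parental cells alone.

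The leukocyte integrins that bind ICAMs, VCAM1 and JAMs gave 0 of 6 genes at least 4-fold apart between MDEC and B16F10. Itga4 was at 6.65 in MDEC, at 8.45, 8.52, 9.09 and 8.79 in clones A2 to A5, and at 8.20 in parental cells and 6.75 in clone A1. Its difference of 1.24 ± 0.43 (SE) did not pass (limma adjusted p = 0.487). It was 1.97 from clone A1 alone and 0.51 from parental cells alone. Itgb1, its partner chain, differed by -0.10 ± 0.10 (SE) and was at 10.93 in MDEC and a mean of 10.70 in B16F10. Itgal differed by -0.06 ± 0.15 and Itgax by -0.004, and Itgax was at 4.32 in MDEC and a mean of 4.47 in B16F10.

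**Figure D4:**
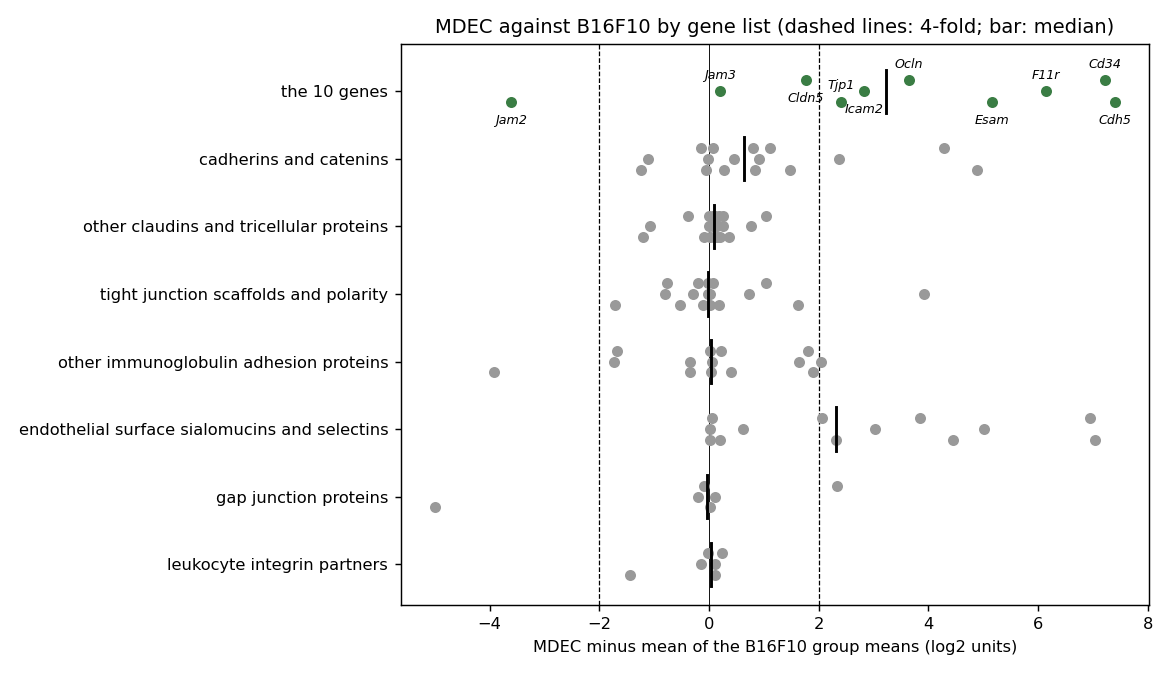
Difference of MDEC from B16F10 in log2 units, 1 point per gene, for the 10 genes and 7 lists of related genes, with a bar at each median and dashed lines at 4-fold. The 10 genes have a median of 3.23 with Jam2 on the lower side, endothelial surface genes a median of 2.31, and the other lists medians between -0.04 and 0.63.

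The genes most like the members in profile were found by the Euclidean distance over the 7 arrays, after each gene's own B16F10 mean was taken off, for the 5 members that varied most. Because the MDEC difference is large in these 5 members, this names genes with a similar MDEC difference. The distances given also hold the spread among the B16F10 arrays. That spread was not small for the gene nearest to Jam2, Trpv2, at 9.10 in clone A2 and 10.16 in clone A1. Nearest to Cdh5 were Cd24a, a surface sialoglycoprotein gene, at a distance of 0.21 log2 units, Cd34 at 0.32 and Emcn at 0.43. Cd34 had Cd24a (0.22), Emcn (0.32) and Cdh5 (0.32) nearest. F11r lay nearest to the matrix gene Tnc (0.43), Tcim (0.49) and the fatty acid binding gene Fabp4 (0.52), and Esam to the adhesion receptor gene Adgrl4 (0.15), Psg22 (0.19) and Rnf39 (0.20). Jam2 had no near neighbour at such distances. The channel gene Trpv2 was at 0.67, the glypican gene Gpc1 at 0.76 and the collagen receptor gene Ddr2 at 0.77, all lower in MDEC.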

How the data were processed

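RNA of 7 samples was measured on 1 array each. The deposited values are log2 expression per probe set; the submitters' processing notes name Partek, and its version, summarisation, background correction, normalization and genome build were not given in the sources used here. The log2 scale was read from the values (1.39 to 13.5). The values hold no detection calls, so signal over background is unknown, and precision is limited by how many arrays there are.

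The annotation gave 1 symbol to 21789 of 35557 probe sets, several to 1621 and none to 12147. Of those with 1 symbol, 21698 matched the RefSeq gene table of GRCm38.p6 and 0 names changed. The brightest probe set over all arrays stood for each of 19938 genes.

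PECAM1+ clones were set against PECAM1- samples with limma 3.58.1 in R 4.3.3 (lmFit, eBayes with trend), two-sided, on the 6 B16F10 arrays, with Benjamini-Hochberg adjustment over all genes and a threshold of 0.05. The fit was checked on simulated arrays. With 1 MDEC array, no test was made, and genes were counted where MDEC lay outside the 6 B16F10 arrays and 4-fold or more from the average of the PECAM1+ and PECAM1- means.

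The 10 genes, the lists and the tests were chosen with earlier results of these data known. Named were Pecam1, all 10 genes, up to 3 genes of each of the 7 related lists by each difference, and the 3 nearest profiles for 5 of the 10 genes. Among profiles, small RNAs, olfactory receptors and predicted genes were skipped. Erg and the marker genes were named after their values were seen. List genes without a probe set of their own symbol were not analysed here. Alternatives were other normalizations, a filter on dim genes, other eBayes settings, array weights, other treatments of probe sets, a 2-fold rule and leaving out each B16F10 array.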

Additional observations from a re-analysis of the deposited data

Results flagged for a closer look

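Esam in clone A3 was at 5.47, below the 3 other PECAM1+ clones, which lay between 5.59 and 5.60. The gap to the nearest clone was 0.923 of the span of the group, above Dixon's 95% critical value for 4 samples. The same check was made for Pecam1 and each of the 10 genes in the PECAM1+ clones, and chance alone picks out some groups at that level.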

How the results depend on the processing

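None of the 10 genes was called in any of the 8 other settings of the PECAM1 comparison or with any of the 6 B16F10 arrays left out, though the filter on dim genes kept only 3 of them for testing. Over all genes 2 were called, and 1 to 6 in the other settings with all 6 arrays. That number was 4089 without parental cells, and 1 or 2 with any other array left out. Differences near 0 changed sign. F11r turned to -0.036 with array weights and ran from -0.22 to 0.24 with 1 array left out. In the same fits Jam2 ran from -0.35 to 0.026, Cdh5 from -0.072 to 0.0087, Cd34 from -0.041 to 0.089 and Tjp1 from -0.053 to 0.010. The cause was not tested. Cldn5 and Jam3 stayed higher, and Esam, Icam2 and Ocln lower, in each of these settings that tested them. Only the normalizations, the array weights and leaving out an array could change a difference. The filter, the eBayes settings and the treatments of probe sets could not, since each gene had 1 probe set, so their signs were fixed in advance. The differences of MDEC from B16F10 moved by less than 1 SD of the B16F10 arrays under every alternative run. The count of genes at least 4-fold apart was 8 in all of them. At least 2-fold apart were 9 of the 10, with 8 higher and 1 lower in MDEC. Of all 19938 genes, 1276 were higher and 1367 lower by the 2-fold rule. No paired analysis was possible because the labels give no replicate numbers; those used here only name the samples in the order of deposit. With no detection calls, the dimmest values limit what can be said of genes that lie low in B16F10.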
